A study of Mus musculus with 24 samples.

Results

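The endoplasmic reticulum (ER) folding and degradation genes comprised 34 named genes for ER chaperones, disulfide isomerases, degradation factors, stress sensors and translocon subunits. They were chosen by symbol, and each gene was read from its probe set with the highest mean. All 34 were found among the 19938 genes with a single symbol on the array. RNA was measured in NIH3T3 cells, an immortalised mouse fibroblast line, which were depleted of polyamines with 1 mM difluoromethylornithine (DFMO), an inhibitor of ornithine decarboxylase, for 96 h and then given spermidine, a polyamine. The 0 min cells had DFMO and no spermidine, while those harvested at 30, 60 and 120 min, and every 120 min from there to 600 min, had DFMO and then 10 µM spermidine in the presence of 1 mM aminoguanidine, an inhibitor of amine oxidases. There were 3 biological replicates a time, hybridised to 24 arrays in all (Affymetrix MoGene 1.0 ST, 200 ng of total RNA each). Whether aminoguanidine was also given at 0 min is not in the labels, and no array comes from cells that stayed in DFMO alone as long, so that effects of spermidine and of further time in culture cannot be told apart. All groups came from 1 cell line. The question addressed was how expression of these genes changed with time once polyamine-depleted cells received spermidine.

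The ER is where secreted and membrane proteins enter the secretory pathway, fold and acquire disulfide bonds and glycans. Chaperones of the Hsp70 and Hsp90 families, lectin chaperones and disulfide isomerases assist folding, while proteins that fail to fold are moved back to the cytosol and degraded. When unfolded proteins build up, the sensors encoded by Ern1, Eif2ak3 and Atf6 start the unfolded protein response, in which the cleaved ATF6 protein and the spliced form of XBP1 induce genes of folding and degradation. Fibroblasts secrete large amounts of collagen and matrix and depend on this machinery.

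Values are on the log2 scale, and a change is a log2 difference given ± the standard error (SE) of a limma fit over all 24 arrays. A gene was called where its p, adjusted over all 19938 genes by Benjamini-Hochberg, was under 0.05, and the words rose and fell are used of called genes. The median SE of a difference from 0 min was 0.0605, and the median half-width of its 95% interval was 0.127. A probe set's value was not set against that of another gene. All 9 fibroblast markers had a mean of at least 5, in a range of 6.04 to 12.72, and their array means lay between 9.98 and 10.01 at 600 min, against 9.67 to 9.81 at 0 min. At 600 min 3 of the 9 were called higher and 0 lower, against 9.84% and 14.4% of all genes. The median change of the 9 markers was then 0.098, and the largest was 1.37, in Pdgfra. The part of these markers in the results was not tested. None of the 17 markers of macrophages, epithelium, adipocytes, muscle or endothelium reached 5, and their means lay between 3.63 and 4.60. Of the members, 33 of 34 had a mean of at least 5, and Derl3 did not. On bulk RNA, fewer cells with a transcript and less of it per cell cannot be told apart.

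A pair of arrays stood apart from the time they are labelled with. On the first principal component, which held 63.1% of the variance, the 240 min arrays lay at 2.07, 1.49 and -13.23 for replicates 1, 2 and 3, and the 120 min arrays at -12.18, -12.23 and 2.61. The same pair stood apart in the members: over the 20 of them called higher at 360 min, the median difference from 0 min was 0.42, 0.27 and -0.05 in the 240 min arrays, against -0.01, 0.05 and 0.28 in the 120 min arrays. The library labelled 120 min replicate 3 was thus high where the other arrays of its time were near the 0 min level, and the library labelled 240 min replicate 3 was low where the others of its time were high. Each thus lay beside the other arrays of the other's time, and whether the labels of these 2 arrays were exchanged was not tested, which bears on every replicate 3 value printed for 120 and 240 min. Both were kept under their labels, and results at these times are given with and without them. The pair was picked from these same values, so results without it are not separate evidence of a change between these times.

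Several members carry the ER stress response element (ERSE) upstream of their start, a CCAAT box and a CCACG box set 9 bases apart, to which NF-Y and the cleaved ATF6 or XBP1 are known to bind. The letters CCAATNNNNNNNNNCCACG were searched on both strands from 250 bases before to 50 bases after the start in the RefSeq annotation of mouse build GRCm38.p6, where 27 of the 34 members had a window. The promoters of Sec61a1, Derl1, Hyou1, Sil1, Hspa13, Manf and Atf6 were not analysed here. The element was present in 9 of the 27 members (33.3%), against 37 of 27025 genes (0.137%). Members were chosen by symbol as genes of folding and degradation, which ATF6 and XBP1 are known to induce. These shares are thus a description and not a test. The related ERSE-II letters ATTGGNCCACG were found in 2 members, Herpud1 and Dnajb11 (7.41%), against 12 genes (0.0444%), and no match of these letters overlapped an ERSE match in the members. The XBP1-type core TGACGTGG was found in Txndc5 and Txndc11 (7.41%, against 0.714% of all genes). TGATGNAAT, the C/EBP-ATF type of element used by ATF4, was found in 0 of 27 members, against 1.08% of all genes. A match is a description of letters, not evidence of binding. The matches that lie before the start are shown because these genes are followed below. Each is printed 5′ to 3′ in the orientation of the element, with the boxes in capitals and 8 bases on each side:
Hspa5 (chr2:34772017-34772051, + strand): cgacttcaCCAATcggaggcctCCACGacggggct
Hsp90b1, distal (chr10:86705630-86705664, - strand): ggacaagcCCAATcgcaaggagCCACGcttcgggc
Hsp90b1, proximal (chr10:86705525-86705559, + strand): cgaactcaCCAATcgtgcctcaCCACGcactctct
Calr (chr8:84847067-84847101, + strand): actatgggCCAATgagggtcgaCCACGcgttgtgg
Canx (chr11:50325792-50325826, - strand): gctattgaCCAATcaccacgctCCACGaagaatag
Pdia6 (chr12:17266483-17266517, + strand): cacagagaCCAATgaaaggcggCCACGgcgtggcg
Creld2 (chr15:88819512-88819546, - strand): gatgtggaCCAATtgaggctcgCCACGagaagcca
Dnajc3 (chr14:118937819-118937853, + strand): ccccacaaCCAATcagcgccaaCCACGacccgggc
Syvn1 (chr19:6046524-6046558, + strand): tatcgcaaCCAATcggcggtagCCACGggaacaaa
Derl3 (chr10:75893234-75893268, - strand): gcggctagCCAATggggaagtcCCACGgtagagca
Herpud1, ERSE-II (chr8:94386369-94386395, + strand): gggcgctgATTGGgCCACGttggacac

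The elements ended between 26 bases (Syvn1) and 194 bases (Hsp90b1, distal) before the start, as drawn in the map of motif positions. For Hspa5, the gene of the chaperone BiP and the member best known as a target of ATF6, the 250 bases before the start are shown with the 1 exact match in capitals. They lie on the + strand at chr2:34771840-34772089:
Hspa5 promoter: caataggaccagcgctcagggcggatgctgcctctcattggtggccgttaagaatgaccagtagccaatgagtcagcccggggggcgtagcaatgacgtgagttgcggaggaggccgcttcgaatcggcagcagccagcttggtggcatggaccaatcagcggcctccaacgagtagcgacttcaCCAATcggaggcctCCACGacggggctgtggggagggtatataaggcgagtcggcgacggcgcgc

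**Figure D1:**
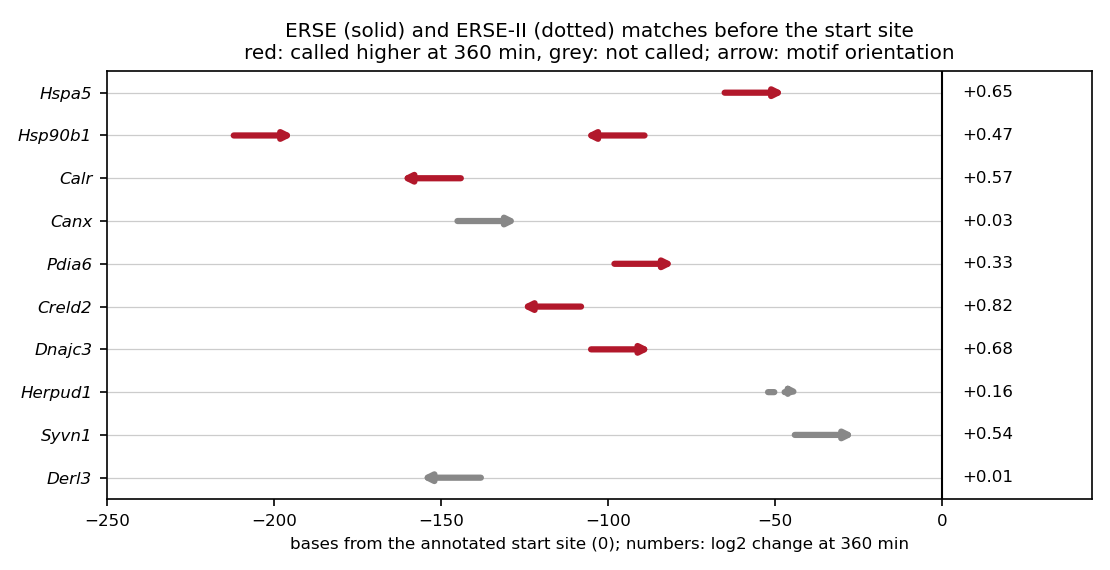
Positions of ERSE (solid arrows) and ERSE-II (dotted arrow) letters before the annotated start of each member, in bases, with the log2 change at 360 min against 0 min at the right. Arrows give the orientation of the motif, red marks genes called higher at 360 min and grey genes not called. Hspa5, Hsp90b1, Calr, Pdia6, Creld2 and Dnajc3 are red, and Canx, Herpud1, Syvn1 and Derl3 are grey.

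Chaperone and disulfide isomerase genes made up most of the members that were higher from 360 min on. At 360 min 20 of the 34 members rose and 4 fell, where 7.28% of all 19938 genes rose and 9.10% fell. The median change of the members was 0.310 at 360 min, and that of all genes was 8.33e-06. At 480 min 13 members rose and 3 fell, against 8.48% and 13.3% of all genes, with a median of 0.208 for the members and 0.002 for all genes. At 600 min 14 rose and 5 fell, against 9.84% and 14.4%, with a median of 0.148 for the members and 0.006 for all genes. Atf6, Sil1 and Derl1 fell at all 3 times, Sec61a1 at 360 and 600 min, and Ssr1 at 600 min. The late times (360, 480 and 600 min) differed from the early times with spermidine (30, 60 and 120 min), a comparison that shares no array with 0 min, in 21 members that were higher and 4 that were lower, against 14.9% and 18.4% of all genes. The F-test over the 8 times called 22 members, against 26.8% of all genes. Comparisons with 0 min share its 3 arrays. The p-values rest on the spread between replicates of a time, pooled over the arrays of all times, including the pair that stood apart.

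**Figure D2:**
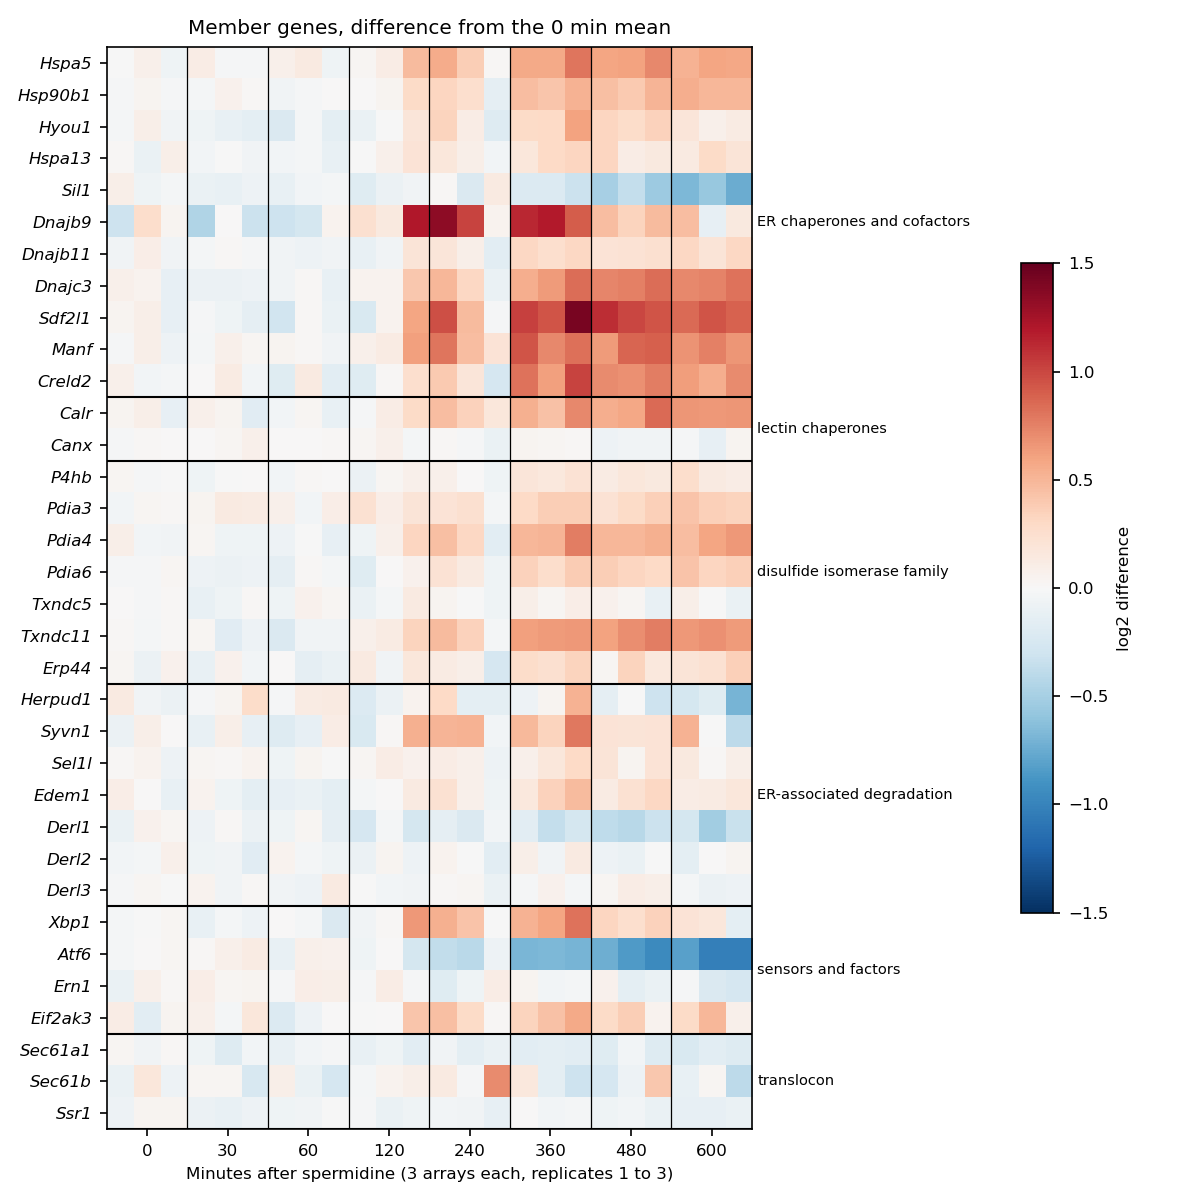
Log2 difference of each array from the mean of the 0 min arrays, for the 34 members (rows, ordered by role) and the 24 arrays (columns, by minutes after spermidine, replicates 1 to 3 within a time). Red is higher and blue lower. Most chaperone and isomerase rows turn red by 360 min while Atf6, Sil1 and Derl1 turn blue, and the third column of 120 min and of 240 min stand apart from their neighbours.

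No member was called by limma at 30 min, where 0% of all genes were called, and 1 of 34 members had an unadjusted p under 0.05, against 4.15% of all genes. At 60 min 0 members were called, where 0.0100% of all genes were, and 0 had an unadjusted p under 0.05, against 3.71%. At 120 min none was called either, where 0.201% of all genes were, and 3 of 34 had an unadjusted p under 0.05, against 9.92%. None was called at 240 min, where 1.79% of all genes were, and 8 of 34 had an unadjusted p under 0.05, against 13.1%. Without 120 min replicate 3 and 240 min replicate 3, the pair that stood apart, 11 members rose and 1, Atf6, fell at 240 min, where 1.86% of all genes rose and 4.73% fell in the same fit. In that fit 0 members were called at 120 min, against 0.0953% of all genes. Leaving out 240 min replicate 3 alone gave 10 higher and 1 lower at 240 min (1.30% and 4.19% of all genes), and leaving out 120 min replicate 3 alone gave 1 higher and 0 lower (0.547% and 2.59%). Without the pair, the median change of the members at 240 min was 0.146, against 0.083 with it. As the pair was picked on these values, leaving out its low 240 min array was bound to widen the change.

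Between 120 and 240 min 0 members and 0% of all genes were called, and 0 members had an unadjusted p under 0.05, against 7.05% of all genes. Without the pair 8 members rose and 1 fell over this interval, against 0.632% and 0.808% of all genes. Leaving out a high 120 min array and a low 240 min array was bound to widen this difference. From 240 to 360 min Creld2, Dnajc3, Txndc11 and P4hb rose (2.89% of all genes did) and Atf6 fell (1.00% did). None of these 5 calls was kept whichever array was left out, and all 5 were lost without 240 min replicate 3. Creld2 was also lost without 360 min replicate 3, with an adjusted p of up to 0.0744, and Atf6 without 360 min replicate 1 or 360 min replicate 3, with one of up to 0.154. Txndc11, P4hb and Dnajc3 were lost without any of 11, 19 and 22 arrays, each taken alone. Without the pair 1 member, Creld2, rose and 0 fell over this interval, against 1.63% and 0.436% of all genes, and without the replicate block 10 rose and 1 fell, against 4.25% and 1.80%. Between 360 and 480 min 0 members were called, where 0.326% of all genes were, and 3 had an unadjusted p under 0.05, against 8.08%. Between 480 and 600 min 0 were called, where 0.105% of all genes were, and 2 had an unadjusted p under 0.05, against 6.53%.

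Among the 11 chaperones and cofactors, 10 rose and 1 fell at 360 min, against 7.28% and 9.10% of all genes, with a median change of 0.65. Hspa5 encodes BiP, the ER Hsp70 that binds nascent chains and holds the sensors inactive. Hspa5 read 11.26, 11.33 and 11.19 (0 min), 11.37, 11.24 and 11.24 (30 min), 11.33, 11.40 and 11.20 (60 min), 11.29, 11.37 and 11.73 (120 min). Hspa5 then read 11.82, 11.63 and 11.28 (240 min), 11.82, 11.83 and 12.06 (360 min), 11.85, 11.86 and 11.98 (480 min), 11.78, 11.85 and 11.84 (600 min). The arrays of 360, 480 and 600 min all lay above those of 0 min. Hspa5 rose by 0.65 ± 0.12 at 360 min (adjusted p = 9.50e-04), by 0.64 ± 0.12 at 480 min and by 0.56 ± 0.12 at 600 min (adjusted p = 0.0015). Hsp90b1 encodes GRP94, the Hsp90 of the ER. Hsp90b1 read 10.95, 11.00 and 10.94 (0 min), 10.93, 11.02 and 10.98 (30 min), 10.91, 10.95 and 10.96 (60 min), 10.96, 11.01 and 11.25 (120 min). Hsp90b1 then read 11.28, 11.21 and 10.83 (240 min), 11.42, 11.37 and 11.49 (360 min), 11.41, 11.36 and 11.48 (480 min), 11.51, 11.46 and 11.46 (600 min). No array from 360 min on overlapped with the 0 min arrays. Hsp90b1 rose by 0.47 ± 0.089 at 360 min and 0.52 ± 0.089 at 600 min (adjusted p = 0.0013 for 360 min and 2.38e-04 for 600 min). Both genes carry the ERSE shown above.

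Sdf2l1, Dnajc3 and Manf had the largest rises at 600 min of the members called by the F-test. Sdf2l1 encodes an ER protein that works in a complex with the J protein of Dnajb11. Sdf2l1 read 7.86, 7.90 and 7.69 (0 min), 7.80, 7.76 and 7.68 (30 min), 7.53, 7.84 and 7.72 (60 min), 7.59, 7.87 and 8.41 (120 min). Sdf2l1 then read 8.79, 8.30 and 7.80 (240 min), 8.85, 8.76 and 9.24 (360 min), 8.93, 8.82 and 8.76 (480 min), 8.67, 8.76 and 8.70 (600 min). All arrays of the last 3 times lay above 0 min. Sdf2l1 rose by 1.13 ± 0.20, a 2.19-fold level, at 360 min and by 0.89 ± 0.20 at 600 min (adjusted p = 8.00e-04 for 360 min and 0.0028 for 600 min). Dnajc3 encodes P58IPK, a J protein that brings unfolded chains to BiP. Dnajc3 read 9.90, 9.88 and 9.71 (0 min), 9.75, 9.74 and 9.76 (30 min), 9.78, 9.85 and 9.72 (60 min), 9.88, 9.89 and 10.24 (120 min). Dnajc3 then read 10.34, 10.14 and 9.73 (240 min), 10.38, 10.47 and 10.67 (360 min), 10.56, 10.59 and 10.67 (480 min), 10.56, 10.58 and 10.64 (600 min). The late arrays again lay apart from 0 min. Dnajc3 rose by 0.68 ± 0.12 at 360 min and 0.76 ± 0.12 at 600 min (adjusted p = 7.38e-04 for 360 min and 1.04e-04 for 600 min). Manf encodes a small ER protein that binds BiP and can be secreted. Manf read 6.99, 7.10 and 6.94 (0 min), 6.99, 7.09 and 7.05 (30 min), 7.05, 7.03 and 6.96 (60 min), 7.09, 7.14 and 7.63 (120 min). Manf then read 7.82, 7.48 and 7.22 (240 min), 7.95, 7.73 and 7.84 (360 min), 7.65, 7.89 and 7.91 (480 min), 7.68, 7.77 and 7.68 (600 min). Its late arrays did not overlap with 0 min. Manf rose by 0.83 ± 0.13 at 360 min and 0.70 ± 0.13 at 600 min (adjusted p = 3.62e-04 for 360 min and 6.57e-04 for 600 min).

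The other cofactors that rose at 360 min were Creld2, Hyou1, Dnajb11, Hspa13 and Dnajb9. Creld2, for an ER protein induced by ER stress, rose by 0.82 ± 0.14 at 360 min and 0.62 ± 0.14 at 600 min, with means of 8.90 and 8.71, against 8.09 at 0 min. Hyou1 encodes GRP170, a chaperone and nucleotide exchange factor of BiP. It rose by 0.40 ± 0.11 at 360 min (adjusted p = 0.0151) and by 0.31 ± 0.11 at 480 min, and its change at 600 min was 0.13 ± 0.11 (adjusted p = 0.491). Hyou1 averaged 8.90 at 360 min and 8.63 at 600 min, against 8.51 at 0 min. Dnajb11, for a J protein of the ER that works with BiP, rose by 0.29 ± 0.078 at 360 min and 0.27 ± 0.078 at 600 min. It averaged 8.95 at 360 min and 8.92 at 600 min, against 8.65 at 0 min. Hspa13, for an Hsp70-like ATPase of the microsomes, rose by 0.27 ± 0.072 and 0.21 ± 0.072 at these times, with averages of 8.87 at 360 min and 8.82 at 600 min, against 8.61 at 0 min. Dnajb9 encodes ERdj4, a J protein that hands misfolded chains to degradation and promotes binding of BiP to IRE1. Dnajb9 read 5.28, 5.85 and 5.63 (0 min), 5.13, 5.59 and 5.26 (30 min), 5.28, 5.32 and 5.64 (60 min), 5.83, 5.73 and 6.79 (120 min). Dnajb9 then read 6.93, 6.60 and 5.64 (240 min), 6.72, 6.78 and 6.49 (360 min), 6.05, 5.92 and 6.07 (480 min), 6.05, 5.46 and 5.74 (600 min). Its 3 arrays at 360 min lay above 0 min, while those of 600 min overlapped with 0 min, and its SE was the largest of the members. Dnajb9 rose by 1.07 ± 0.29 at 360 min (adjusted p = 0.014), and its change was 0.43 ± 0.29 at 480 min, then 0.16 ± 0.29 at 600 min (adjusted p = 0.381 for 480 min and 0.783 for 600 min). Its arrays are given in full by a choice made after its values were seen.

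Sil1, the cofactor that fell, encodes a nucleotide exchange factor that releases substrate from BiP. Sil1 read 7.96, 7.80 and 7.84 (0 min), 7.76, 7.76 and 7.79 (30 min), 7.75, 7.82 and 7.84 (60 min), 7.69, 7.78 and 7.82 (120 min). Sil1 then read 7.89, 7.66 and 8.00 (240 min), 7.67, 7.66 and 7.55 (360 min), 7.37, 7.51 and 7.32 (480 min), 7.20, 7.29 and 7.12 (600 min). All arrays of the last 3 times were below those of 0 min. Sil1 fell by 0.24 ± 0.075 at 360 min (adjusted p = 0.0331), by 0.47 ± 0.075 at 480 min and by 0.66 ± 0.075 at 600 min (adjusted p = 3.53e-06). It also fell between 360 and 600 min, with a change of -0.42 ± 0.075 (adjusted p = 0.0033).

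**Figure D3:**
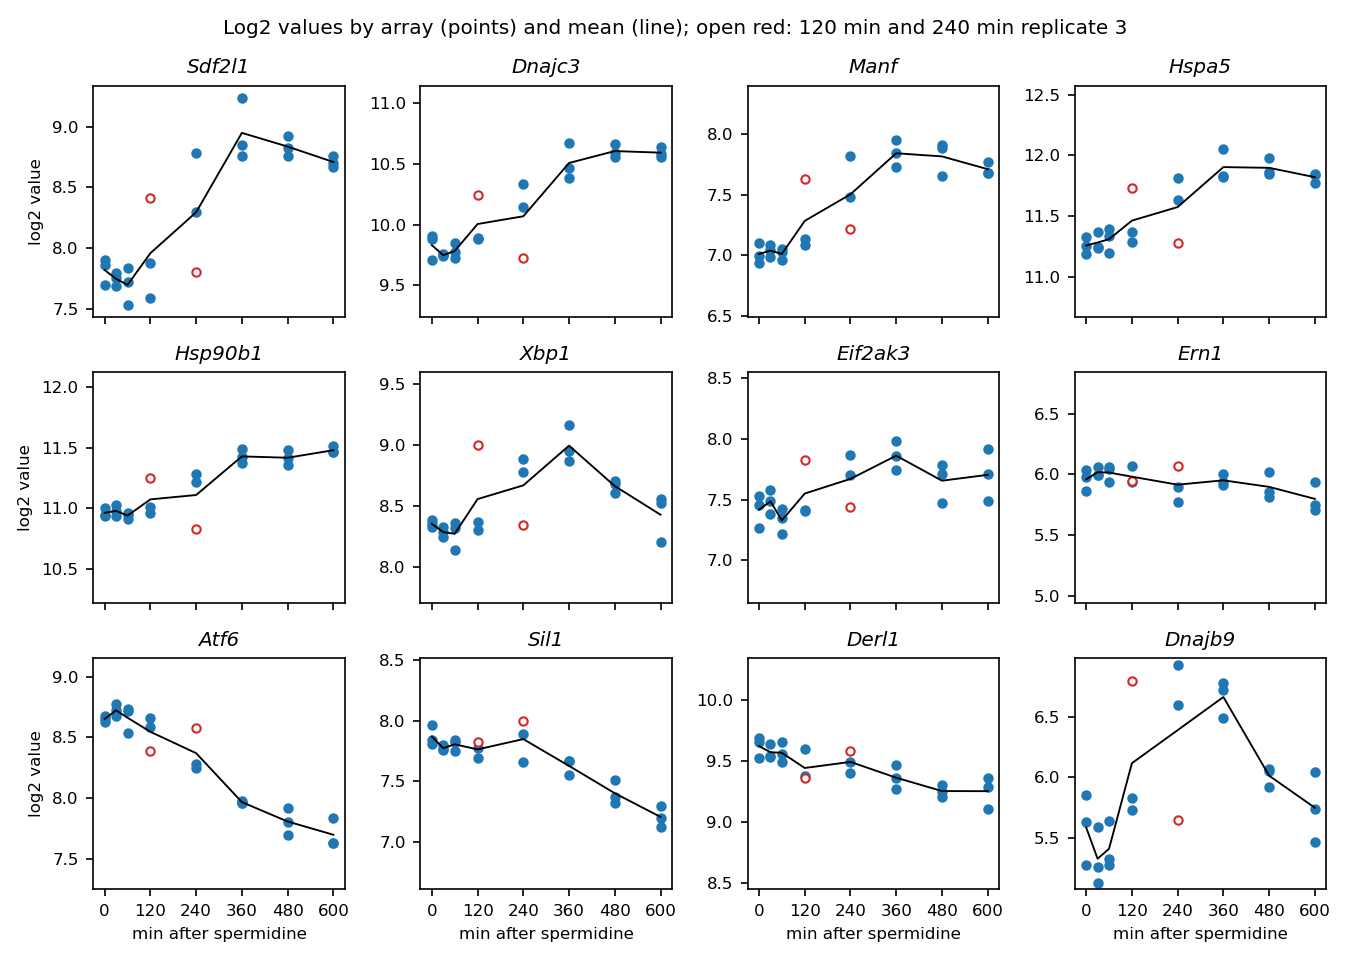
Log2 values of 12 members against minutes after spermidine. Points are arrays, lines join the means of the 3 arrays of a time, and open red points are replicate 3 of 120 min and of 240 min. Sdf2l1, Dnajc3, Manf, Hspa5 and Hsp90b1 have means above that of 0 min from 360 to 600 min, Xbp1 and Dnajb9 have their highest mean at 360 min, and Atf6, Sil1 and Derl1 are lower from 360 min on.

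The lectin chaperones bind the trimmed glycans of folding glycoproteins. Calr, for the soluble calreticulin, rose by 0.57 ± 0.10 at 360 min and 0.66 ± 0.10 at 600 min (adjusted p = 9.19e-05), with means of 10.97 and 11.06, against 10.40 at 0 min. Canx, for its membrane-bound relative calnexin, was not called. Its change was 0.028 ± 0.042 at 360 min, with a 95% interval from -0.061 to 0.12, and -0.034 ± 0.042 at 600 min, from -0.12 to 0.055. Its level averaged 12.26 at 360 min and 12.20 at 600 min, against 12.23 at 0 min. Both genes hold the ERSE letters.

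Of the 7 genes of the disulfide isomerase family, 6 rose and 0 fell at 360 min, against 7.28% and 9.10% of all genes. At 600 min 5 rose and 0 fell, against 9.84% and 14.4%, with a median change of 0.37 at that time. Txndc11, for a membrane-bound member of the thioredoxin family, rose by 0.64 ± 0.10 at 360 min and 0.66 ± 0.10 at 600 min, with means of 7.74 and 7.76, against 7.10 at 0 min. Pdia4, for ERp72, rose by 0.59 ± 0.12 and 0.57 ± 0.12, and averaged 10.30 at 360 min and 10.27 at 600 min, against 9.71 at 0 min. Pdia3, for ERp57, which works with the lectin chaperones, rose by 0.34 ± 0.063 and 0.37 ± 0.063, with averages of 12.13 at 360 min and 12.16 at 600 min, against 11.79 at 0 min. Pdia6, for the isomerase P5, rose by 0.33 ± 0.067 and 0.37 ± 0.067, with averages of 11.26 at 360 min and 11.29 at 600 min, against 10.93 at 0 min. P4hb encodes protein disulfide isomerase itself, which is also a subunit of the collagen prolyl hydroxylases. It rose by 0.18 ± 0.048 and 0.17 ± 0.048, the smallest called changes of the family, and averaged 11.94 at 360 min and 11.93 at 600 min, against 11.76 at 0 min. Erp44, which retains oxidoreductases in the early secretory pathway, rose by 0.28 ± 0.10 at 360 min (adjusted p = 0.0498), and its change at 600 min was 0.26 ± 0.10 (adjusted p = 0.0503). Its level averaged 9.69 at 360 min and 9.68 at 600 min, against 9.41 at 0 min. Txndc5, for ERp46, was not called, with changes of 0.075 ± 0.064 and -0.005 ± 0.064 and averages of 10.20 at 360 min and 10.12 at 600 min, against 10.13 at 0 min.

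Of the 7 degradation genes, 1 rose and 1 fell at 360 min, when 7.28% of all genes rose and 9.10% fell. Counts this small cannot be told from those shares. Both calls, of Edem1 and Derl1, were lost when some single arrays were left out. At 600 min 0 rose and 1 fell, against 9.84% and 14.4% of all genes. Edem1, for a lectin that picks misfolded glycoproteins for degradation, rose by 0.33 ± 0.084 at 360 min (adjusted p = 0.0106), and its change at 600 min was 0.13 ± 0.084 (adjusted p = 0.309). Edem1 averaged 8.89 at 360 min and 8.69 at 600 min, against 8.56 at 0 min. Syvn1 encodes HRD1, the ubiquitin ligase of the pathway, and was not called: its change was 0.54 ± 0.21 at 360 min, then 0.042 ± 0.21 at 600 min (adjusted p = 0.096 for 360 min and 0.933 for 600 min). Syvn1 averaged 7.03 at 360 min and 6.54 at 600 min, against 6.49 at 0 min. Its partner Sel1l had changes of 0.19 ± 0.063 and 0.081 ± 0.063, and averaged 9.56 at 360 min and 9.46 at 600 min, against 9.38 at 0 min. Herpud1, for a stress-induced member of the same complex, averaged 9.55 at 360 min and 9.01 at 600 min, against 9.39 at 0 min. It was not called, with changes of 0.16 ± 0.16 and -0.38 ± 0.16 (adjusted p = 0.637 for 360 min and 0.103 for 600 min). With 120 min replicate 3 and 240 min replicate 3 left out, Syvn1 and Sel1l were called at 360 min (adjusted p = 0.0309 and 0.0342).

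The derlins are membrane proteins that take part in the exit of misfolded chains from the ER. Derl1 read 9.53, 9.69 and 9.65 (0 min), 9.54, 9.64 and 9.53 (30 min), 9.56, 9.66 and 9.49 (60 min), 9.37, 9.60 and 9.36 (120 min). Derl1 then read 9.49, 9.40 and 9.58 (240 min), 9.47, 9.27 and 9.36 (360 min), 9.25, 9.21 and 9.30 (480 min), 9.36, 9.10 and 9.29 (600 min). The arrays of 360, 480 and 600 min lay below those of 0 min. Derl1 fell by 0.26 ± 0.079 at 360 min (adjusted p = 0.0299) and by 0.37 ± 0.079 at 600 min (adjusted p = 0.0017). Derl2 averaged 8.48 at 360 min and 8.39 at 600 min, against 8.42 at 0 min, and was not called, with changes of 0.057 ± 0.066 and -0.032 ± 0.066. Derl3 had a mean of 4.03 at 0 min, below the level of 5 used for dim probe sets, and was not called, with changes of 0.007 ± 0.052 and -0.063 ± 0.052.

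The sensors and factors moved in different directions. Xbp1 encodes the transcription factor whose RNA is spliced by IRE1, and these arrays do not tell spliced from unspliced RNA. Xbp1 read 8.32, 8.35 and 8.38 (0 min), 8.24, 8.33 and 8.28 (30 min), 8.36, 8.32 and 8.13 (60 min), 8.30, 8.37 and 9.00 (120 min). Xbp1 then read 8.89, 8.78 and 8.34 (240 min), 8.87, 8.95 and 9.17 (360 min), 8.68, 8.61 and 8.70 (480 min), 8.55, 8.52 and 8.20 (600 min). The 360 min and 480 min arrays lay above 0 min, and those of 600 min overlapped with it. Xbp1 rose by 0.64 ± 0.16 at 360 min (adjusted p = 0.0073), and its change was 0.31 ± 0.16 at 480 min, then 0.074 ± 0.16 at 600 min (adjusted p = 0.197 for 480 min and 0.825 for 600 min). Eif2ak3 encodes PERK, the kinase that dampens translation through eIF2α. Eif2ak3 read 7.53, 7.26 and 7.46 (0 min), 7.49, 7.38 and 7.58 (30 min), 7.22, 7.34 and 7.42 (60 min), 7.41, 7.42 and 7.83 (120 min). Eif2ak3 then read 7.87, 7.70 and 7.44 (240 min), 7.75, 7.86 and 7.98 (360 min), 7.71, 7.79 and 7.47 (480 min), 7.71, 7.91 and 7.49 (600 min). Its 360 min arrays lay above 0 min and its 480 and 600 min arrays overlapped with it. Eif2ak3 rose by 0.45 ± 0.14 at 360 min (adjusted p = 0.0291), and its change at 600 min was 0.29 ± 0.14 (adjusted p = 0.146).

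Atf6, the gene of the membrane-bound factor that is cleaved when unfolded proteins build up, had the largest fall of the members. Atf6 read 8.62, 8.65 and 8.68 (0 min), 8.67, 8.72 and 8.77 (30 min), 8.54, 8.73 and 8.71 (60 min), 8.59, 8.66 and 8.39 (120 min). Atf6 then read 8.28, 8.25 and 8.58 (240 min), 7.96, 7.98 and 7.96 (360 min), 7.92, 7.80 and 7.70 (480 min), 7.84, 7.63 and 7.63 (600 min). Every array from 360 min on was below every array of 0 min. Atf6 fell by 0.69 ± 0.088 at 360 min (adjusted p = 6.89e-05), by 0.85 ± 0.088 at 480 min and by 0.95 ± 0.088 at 600 min (adjusted p = 4.10e-07), when its level was 0.516 times that of 0 min. Ern1 encodes IRE1, the kinase and endonuclease that splices Xbp1. Ern1 read 5.86, 6.04 and 5.98 (0 min), 6.06, 5.99 and 6.00 (30 min), 5.94, 6.06 and 6.04 (60 min), 5.94, 6.07 and 5.94 (120 min). Ern1 then read 5.77, 5.90 and 6.07 (240 min), 6.00, 5.92 and 5.93 (360 min), 6.02, 5.82 and 5.85 (480 min), 5.94, 5.75 and 5.71 (600 min). The arrays of 360, 480 and 600 min overlapped with those of 0 min. Ern1 was not called against 0 min, with changes of -0.008 ± 0.078 at 360 min and -0.16 ± 0.078 at 600 min (adjusted p = 0.974 for 360 min and 0.164 for 600 min). It was lower at the late than at the early times, with a change of -0.12 ± 0.045 (adjusted p = 0.0439). That call was lost without any of 14 arrays, each taken alone, which lay at all 8 times.

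Of the 3 translocon genes, which serve the entry of new chains into the ER, 0 rose and 1 fell at 360 min, against 7.28% and 9.10% of all genes. At 600 min 0 rose and 2 fell, against 9.84% and 14.4%. Sec61a1, for the channel subunit, fell by 0.15 ± 0.051 at 360 min and 0.19 ± 0.051 at 600 min (adjusted p = 0.0473 for 360 min and 0.0082 for 600 min). Sec61a1 averaged 10.67 at 360 min and 10.63 at 600 min, against 10.82 at 0 min. Ssr1, for a subunit of the associated TRAP complex, had a change of -0.022 ± 0.038 at 360 min and fell by 0.11 ± 0.038 at 600 min (adjusted p = 0.0387), with averages of 9.70 at 360 min and 9.61 at 600 min, against 9.72 at 0 min. Sec61b, for a small subunit of the channel, was not called, with changes of -0.10 ± 0.19 and -0.15 ± 0.19 and averages of 5.95 at 360 min and 5.89 at 600 min, against 6.04 at 0 min.

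**Figure D4:**
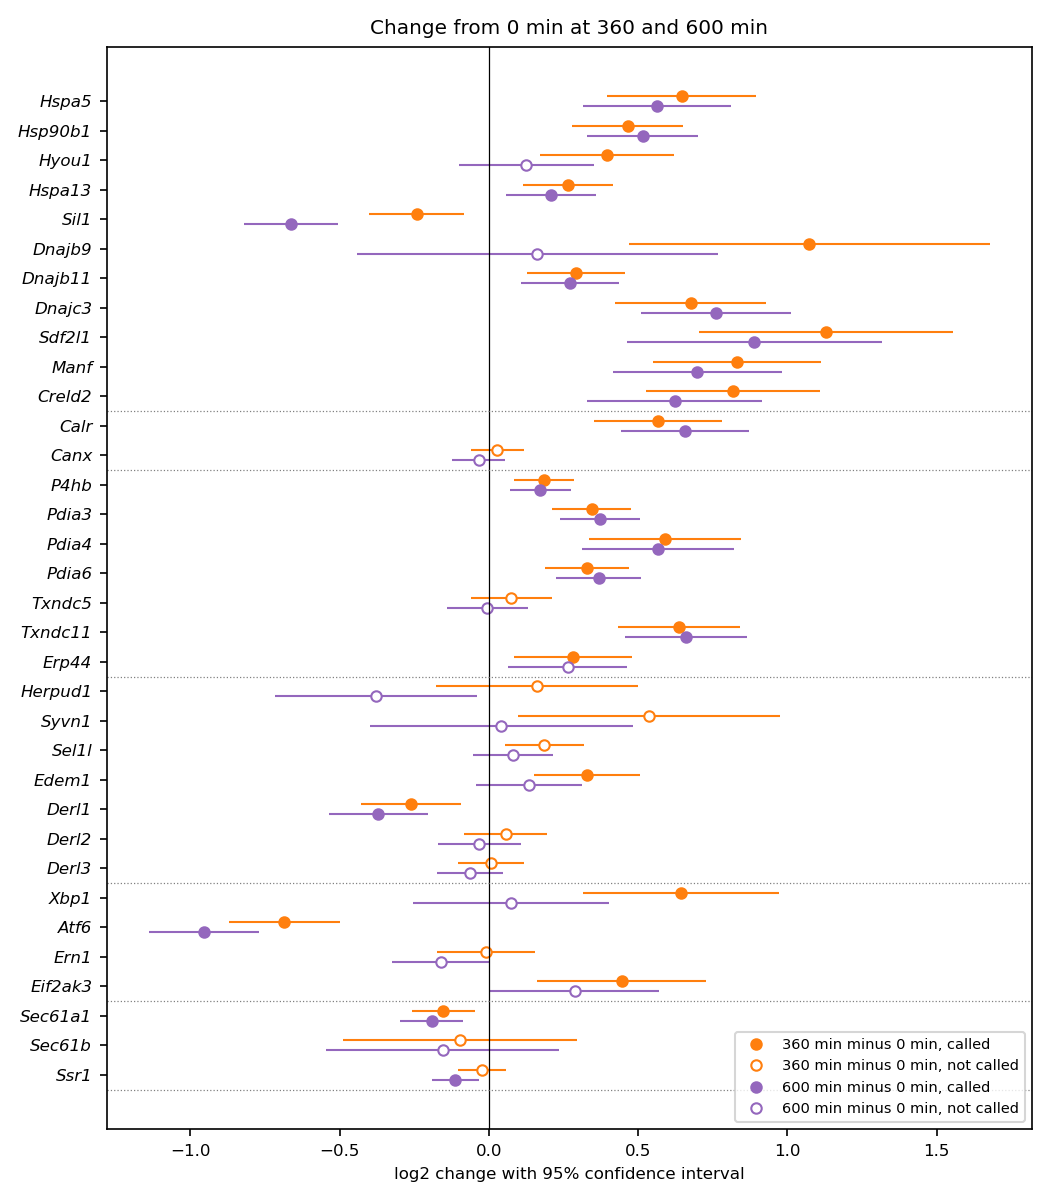
Log2 change from 0 min for the 34 members, ordered by role (dotted lines divide the roles), at 360 min (orange) and 600 min (purple). Points are the fitted changes, bars their 95% confidence intervals, filled points are called and open points are not. Most chaperones and isomerases lie right of 0 at both times, Xbp1 and Dnajb9 are filled at 360 min and open at 600 min, and Atf6 lies furthest left.

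Few members were called between 360 and 600 min. In a comparison added after the values were seen, 0 of the 34 rose and 2 fell at 600 min against 360 min, where 1.82% of all genes rose and 2.32% fell. These were Sil1, given above, and Xbp1, with a change of -0.57 ± 0.16 (adjusted p = 0.0472). Dnajb9 had a change of -0.91 ± 0.29 (adjusted p = 0.0889), Herpud1 of -0.54 ± 0.16 (adjusted p = 0.0682) and Syvn1 of -0.49 ± 0.21 (adjusted p = 0.243), and none of these was called. Hspa5, Hsp90b1, Dnajc3 and Calr had changes of -0.083 ± 0.12, 0.051 ± 0.089, 0.085 ± 0.12 and 0.091 ± 0.10 between these times. The call of Xbp1 was lost without any of 19 of the 24 arrays, each taken alone, and without the pair that stood apart 4 members were lower and 0 higher, against 3.64% and 2.64% of all genes in that fit.

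Some calls were lost when a single array was left out. Of the 24 calls at 360 min, 13 were kept whichever array was left out, 12 of them higher and Atf6 lower. The call at 360 min was lost for P4hb without 0 min replicate 2 or 360 min replicate 3, for Dnajb9 without 0 min replicate 1 or 360 min replicate 2, and for Edem1 without 0 min replicate 3 or 360 min replicate 3. It was lost for Dnajb11 and Hyou1 without 0 min replicate 1, 0 min replicate 3 or 360 min replicate 3, and for Hspa13 without 0 min replicate 2, 360 min replicate 2 or 360 min replicate 3. For Eif2ak3 and Derl1 it was lost without 0 min replicate 2, 0 min replicate 3, 360 min replicate 2 or 360 min replicate 3, and for Sil1 without 0 min replicate 1, 0 min replicate 3, 360 min replicate 1, 360 min replicate 2 or 360 min replicate 3. For Sec61a1 and Erp44 it was lost without any of 14 and 16 of the 24 arrays, each taken alone. Where the array left out was of neither 0 nor 360 min, their changes stayed at -0.152 and 0.282. Only the adjusted p passed 0.05 there, so these 2 calls lay at the threshold. The highest adjusted p reached with an array left out was 0.061 for P4hb and between 0.0667 and 0.205 for the others. The count of higher members was 13 without 360 min replicate 3, and that of lower members was 1 without 0 min replicate 3, 360 min replicate 2 or 360 min replicate 3, and 2 without 0 min replicate 1 or 360 min replicate 1. Shares of all genes in these fits are not given here. The counts thus do not separate a loss of calls in the members from one in all genes. At 600 min 15 of 19 calls were kept whichever array was left out, 11 higher and 4 lower, and the others were lost for P4hb without 0 min replicate 2 or 600 min replicate 1, for Dnajb11 without 0 min replicate 1, 0 min replicate 3, 600 min replicate 1 or 600 min replicate 3, for Ssr1 without 0 min replicate 2, 0 min replicate 3, 600 min replicate 1, 600 min replicate 2 or 600 min replicate 3, and for Hspa13 without any of 12 arrays. At 480 min 14 of 16 were kept, that of P4hb was lost without any array of 0 or 480 min, and that of Hyou1 without any of 13 arrays.

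Members with and members without the ERSE letters were among those that rose. Of the 9 members with the element, 6 rose and 0 fell at 360 min, with a median change of 0.54. Of the 18 with a window and no element, 11 rose and 0 fell, with a median of 0.29. At that time 7.28% of all genes rose and 9.10% fell. The 4 members that fell at 360 min, Sec61a1, Derl1, Sil1 and Atf6, are all among the 7 members whose promoters were not analysed. At 600 min 6 of the 9 rose, with a median of 0.52. Of the 18 without the element 6 rose and 1 fell, with a median of 0.15, where 9.84% of all genes rose and 14.4% fell. The 12 other genes on the array with the letters had a median change of 0.02 at 360 min, where 1 rose and 1 fell, and of 0.03 at 600 min, where 0 rose and 1 fell. Of these Ero1b, for an ER oxidase, rose by 0.65 ± 0.13 (adjusted p = 0.00178) and Alg12, for a mannosyltransferase, fell, with a change of -0.45 ± 0.080 (adjusted p = 7.42e-04), both at 360 min. At 600 min the change of Ero1b was 0.28 ± 0.13 (adjusted p = 0.143) and that of Alg12 was -0.45 ± 0.080 (adjusted p = 3.07e-04).

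Further genes of the same pathways, in 8 lists of 116 measured genes that hold none of the members, were called in both directions: 19 rose and 26 fell at 360 min, and 23 rose and 31 fell at 600 min, against the shares of all genes given above. The PERK arm was listed as Atf4, which the amino acid response also uses, with known targets of it and eIF2α phosphatase subunits, and held no gene that rose. All 9 of its genes fell at 360 min, with a median change of -0.81, and all 9 fell at 600 min, with a median of -0.92. At 600 min Atf4 itself had a change of -1.33 ± 0.18, Ddit3, for the factor CHOP, of -1.72 ± 0.17, Asns, for asparagine synthetase, of -0.78 ± 0.061, and Ppp1r15a, for a phosphatase subunit that restores translation, of -0.77 ± 0.13. Of 17 genes that serve transport between ER and Golgi, 8 rose and 2 fell at that time, with a median of 0.20. Sec24d, for a cargo adaptor of the COPII coat, rose by 0.94 ± 0.13, Sec23a by 0.58 ± 0.073 and Sec23b by 0.49 ± 0.064, while Mcfd2, for a cargo receptor subunit, had a change of -0.44 ± 0.052. Of the 10 genes of procollagen folding 4 rose and 0 fell, with a median of 0.25, and all 4 encode hydroxylases: P4ha2 rose by 1.40 ± 0.18, P4ha1 by 0.95 ± 0.12, Plod2 by 0.81 ± 0.10 and Plod1 by 0.63 ± 0.077.

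The other lists were mixed at 600 min, when 9.84% of all genes rose and 14.4% fell. Of 6 genes listed as membrane-bound factors and proteases 2 rose and 2 fell. That list also holds Rtcb, which is neither and was not called. Mbtps1, for the protease that cleaves ATF6, rose by 0.67 ± 0.062 and Creb3l2 by 0.65 ± 0.16, while Atf6b and Creb3 had changes of -0.52 ± 0.067 and -0.43 ± 0.10. Of 21 further degradation genes 2 rose and 7 fell. Vcp, for the ATPase that pulls chains out of the membrane, rose by 0.60 ± 0.060 and its cofactor gene Nploc4 by 0.41 ± 0.065, while Man1b1, for a mannosidase, and Aup1, for a membrane protein of the degradation complex, had changes of -0.74 ± 0.059 and -0.53 ± 0.059. Of 19 genes of translocation and signal peptide cleavage 2 rose and 4 fell, among them Tram1 (0.70 ± 0.064) and Sec63 (0.20 ± 0.048), which were higher, and Srprb (-0.48 ± 0.050) and Sec11a (-0.48 ± 0.068), which were lower. Of 14 genes of glycan transfer and the calnexin cycle 2 rose and 3 fell, among them Stt3b (0.28 ± 0.047) and Rpn1 (0.16 ± 0.050), both of the oligosaccharyltransferase and higher, and the glucosidase genes Ganab (-0.41 ± 0.067) and Mogs (-0.44 ± 0.089), which were lower. Of 20 genes of oxidative folding and prolyl isomerases 3 rose and 4 fell, with Ppic (-0.54 ± 0.055), Txndc12 (-0.49 ± 0.078), Tmx2 (-0.44 ± 0.068) and Qsox1 (-0.33 ± 0.053) lower.

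**Figure D5:**
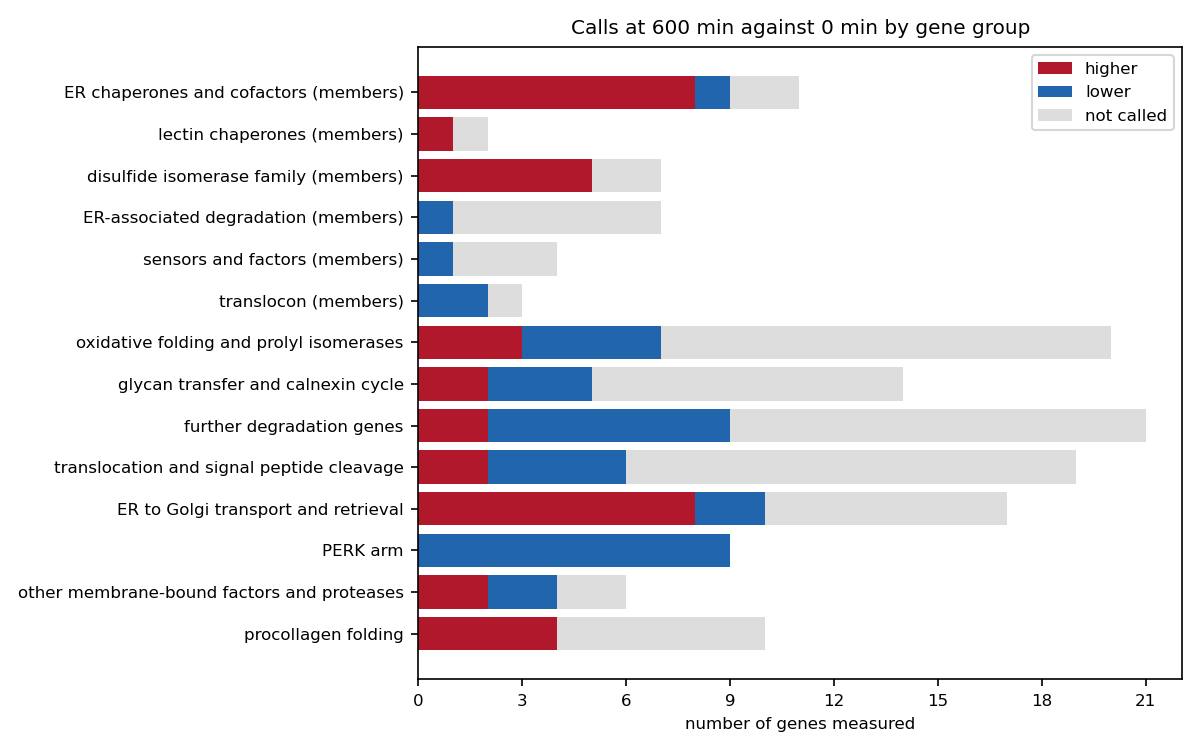
Number of genes called higher (red), called lower (blue) or not called (grey) at 600 min against 0 min, for the 6 roles of the members (top) and the 8 further lists. The bar of the chaperones is red for 8 of 11 genes, that of the PERK arm is blue for all 9, and the other further lists hold both calls or, for procollagen folding, 4 higher and 0 lower.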

How the data were processed

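Total RNA of 24 NIH3T3 cultures (8 times, 3 replicates each) was measured on Affymetrix MoGene 1.0 ST arrays. The authors deposited 1 normalized value per probe set and array, with Partek and RMA (robust multi-array average) named as tools, per the submitters' processing notes. No source used here gives the scale. That the deposited values are log2 was inferred from their range and from RMA. They were used as they stand, with array medians between 4.40 and 4.45. Genome build and software versions are not given in the sources used here.

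Of 35399 probe sets, 21789 carried 1 symbol in the platform annotation, 1621 several and 11989 none. Where a gene had several, the probe set with the highest mean was used (999 genes), which gave 19938 genes. Symbols were compared with RefSeq through their gene IDs: 0 were updated, and 91 probe sets without a match kept their symbol.

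A linear model with a mean per time was fitted to all genes with limma 3.58.1 in R 4.3.3, on 14 residual and 3.55 prior degrees of freedom, with two-sided moderated tests. For every gene the 3 replicate numbers had equal means over the 8 times (median gap 5e-06, largest 8.75e-05), so that an effect of replicate number was removed before deposit by a step not described in the sources used here. Replicate number was therefore kept as a block, which counts its degrees of freedom, and the fit without it, on 16 residual degrees of freedom, was an alternative. Because of this removal the correlation between same-numbered arrays cannot serve as a check of pairing. The p-values were adjusted by Benjamini-Hochberg over all genes within a comparison, and genes were called at an adjusted p under 0.05. The comparisons were each time against 0 min, neighbouring times, 360 to 600 min against 30 to 120 min, and an F-test over the 8 times. The comparison of 600 with 360 min was added after the values were seen. The fit was run on simulated data with normal errors and known changes at 600 min alone. That setting is simpler than these arrays and does not cover the pair that stood apart.

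The members, lists, markers and tests were chosen with earlier results of these data known. All members are named. Every array's value is given for the 3 largest rises and 3 largest falls at 600 min among members called by the F-test, for Hspa5 and Hsp90b1, and for the sensors and factors. Of each further list, up to 4 called genes with the smallest F-test p are named. Alternatives were each array left out, the pair of arrays left out, no block, a mean of at least 5, the mean of a gene's probe sets, quantile normalization, a trended and robust prior, and fits of 2 times alone. Promoter windows came from RefSeq for GRCm38.p6. No protein sequence was used here.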

Additional observations from a re-analysis of the deposited data

How the results depend on the processing

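Shares of all genes are given in this section only for the fit with the block and without the pair of arrays, at 240 min. They differ between fits: from 240 to 360 min 2.89% of all genes rose in the main fit and 4.25% without the block. The counts below thus do not separate a change in the members from one in all genes. With no replicate block, at 360 min 21 members rose and 4 fell, at 480 min 16 rose and 4 fell, and at 600 min 15 rose and 5 fell, and none of the calls of single members at 360, 480 or 600 min against 0 min, or at 600 against 360 min, was lost (0 of 61). At 240 min no replicate block gave 1 higher member, as did the filter on a mean of at least 5 and the trended and robust prior, against 0. Without the pair of arrays, 120 min replicate 3 and 240 min replicate 3, 11 were higher and 1 lower at 240 min, with the block (where 1.86% of all genes were higher and 4.73% lower) and without it. The count of lower members at 360 min was 2 with the trended and robust prior and 2 with the 2 times alone and the block, against 4. The count of lower members at 600 against 360 min was 4 without the pair, 6 without the pair and the block, 4 with the filter and 1 with quantile normalization, against 2. Leaving out each array in turn gave for 240 min 0 to 10 higher and 0 to 1 lower members, for 360 min 13 to 21 higher and 1 to 4 lower, for 480 min 11 to 16 higher and 3 to 4 lower, and for 600 min 12 to 15 higher and 4 to 5 lower. It gave 0 higher and 1 to 4 lower at 600 against 360 min, 20 to 22 higher and 3 to 5 lower at the late against the early times, 20 to 23 by the F-test and 0 at 120 min. No called change of a member reversed. Among changes that were not called, 11 turned direction. With quantile normalization these were Ern1 at 360 min (0.008), Txndc5 at 480 min (0.022) and 600 min (0.020), and Derl2 at 600 min (0.035). Over the arrays left out in turn, the ranges were -0.065 to 0.037 for Ern1, -0.027 to 0.025 for Derl3, -0.044 to 0.296 for Herpud1 and -0.245 to 0.024 for Sec61b at 360 min. They were -0.191 to 0.185 for Sec61b and -0.049 to 0.051 for Txndc5 at 480 min. At 600 min they were -0.078 to 0.017 for Canx, -0.072 to 0.031 for Derl2, -0.013 to 0.325 for Dnajb9, -0.233 to 0.289 for Syvn1 and -0.06 to 0.051 for Txndc5. Of 61 called changes, 6 were no longer called with quantile normalization, 2 with the mean of a gene's probe sets, 2 with the filter and 4 with the trended prior, as were 8 of 59 with the 2 times alone and the block. The causes were not tested. With 3 arrays a time, changes near the 95% half-width of 0.127 could not be told from 0 for a gene of median spread.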

Other observations

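Creld2 and Alg12 lie on opposite strands and share the same ERSE match, at chr15:88819520-88819538 of GRCm38.p6, 126 bases before the start of Creld2 and 220 bases before that of Alg12. Their RNA moved in opposite directions. At 360 min Creld2 rose by 0.82 ± 0.14 (SE, adjusted p = 5.46e-04 by limma), while the change of Alg12 was -0.45 ± 0.080 (adjusted p = 7.42e-04). At 600 min Creld2 rose by 0.62 ± 0.14 and the change of Alg12 was -0.45 ± 0.080. The pair was chosen after the values were seen.

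For 3 members the array holds more than 1 probe set. The pair for Dnajc3 carried the same values. The second probe set of Pdia4, dim at a mean of 4.42, differed from 0 min by 0.36 at 360 min and 0.072 at 600 min, against 0.59 and 0.57 for the one used. The 3 probe sets of Sec61b differed from 0 min by -0.097, -0.038 and -0.096 at 360 min.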
